A study of Rattus norvegicus with 4 samples.

Results

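The genes described are the neurofilament subunits Nefl, Nefm and Nefh (the light, medium and heavy chains), Ina (alpha-internexin) and Prph (peripherin). They were found by symbol among the genes of the deposited matrix, where each of the 5 stands in 1 row, out of 32623 genes in all. Visium counts were available for 4 capture areas of wild-type adult male Sprague–Dawley rat tissue holding the trigeminal root, the ganglion and the proximal branches. In TN1, TN2 and TN3 the trigeminal root had been compressed on that side (trigeminal neuralgia, TN, 1 animal per area), and animals were killed once behaviour had settled. Tissue of 2 animals was placed in the healthy control (HC) area, and the barcodes do not separate them. The series description takes HC from the uncompressed side of 2 of the TN animals, while the study's methods describe sham-operated controls, and by the series description HC and TN tissue would share rats. HC was therefore 1 sample, and condition and capture area cannot be told apart.

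Intermediate filaments are the rope-like part of the cytoskeleton, and neurofilaments are the form found in axons. Nefl, Nefm and Nefh assemble together into filaments that fill large myelinated axons and set their calibre. Prph is the filament protein typical of neurons with axons outside the central nervous system, and in sensory ganglia it is known as a marker of small neurons, whereas Nefh marks large ones. Ina joins neurofilaments chiefly in the central nervous system. After an axon is cut or crushed, sensory neurons are known to lower their neurofilament transcripts during regrowth.

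RefSeq promoter sequences (build GRCr8) were at hand for 2 of the 5 genes, Prph and Ina. Any link between these sequences and the levels described further on was not tested. The 250 bases before each transcript start are shown, read 5′ to 3′ on the plus strand, with capitals marking the motifs found.
Prph, chr7:132097039-132097288: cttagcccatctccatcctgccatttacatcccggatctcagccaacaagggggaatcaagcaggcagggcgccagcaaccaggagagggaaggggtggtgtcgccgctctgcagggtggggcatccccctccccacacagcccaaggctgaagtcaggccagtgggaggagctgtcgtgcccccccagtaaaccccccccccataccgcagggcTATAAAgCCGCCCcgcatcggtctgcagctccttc
Ina, chr1:255837879-255838128: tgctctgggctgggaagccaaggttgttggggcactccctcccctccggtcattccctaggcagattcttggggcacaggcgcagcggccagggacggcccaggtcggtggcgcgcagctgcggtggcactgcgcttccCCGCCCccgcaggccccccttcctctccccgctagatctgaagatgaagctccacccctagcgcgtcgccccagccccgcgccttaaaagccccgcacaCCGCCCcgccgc
The motifs searched on both strands were TATAAA (the TATA box), GGGCGG (the GC box), TGANTCA (the AP-1 site) and TGACGTCA (the cyclic AMP response element). None of these 4 motifs overlapped another in the sequences shown. Prph held TATAAA 35 bases before the start, a motif in 12.9% of all 33469 promoter windows of this length, and a GC box on the opposite strand at 28 bases. Ina held 2 GC boxes on the opposite strand, at 111 and 12 bases, a motif in 30.5% of windows. Neither window held TGANTCA (6.34% of all windows) or TGACGTCA (1.59%). Nefl, Nefm and Nefh had no entry. Nefl and Nefm are neighbours in the RefSeq gene table, with 0 protein-coding genes between them.

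Total depth was between 23546025 UMIs (TN1) and 41335930 UMIs (HC) over 6773 spots, and median UMIs per spot ranged from 9487 in TN1 to 30808 in TN2. Position barcodes repeat between areas of a slide: 2337 of 3573 were used in more than 1 area, and spots were told apart by area. Spots were grouped again into 10 clusters without using the 5 genes, and a cluster took the name of its top-scoring marker list. The ganglion region is clusters 2 and 8. All 8 sensory neuron markers were detected in each, as they were in every other region. Of the 10 leading genes of cluster 8, 0 were on the sensory neuron list and 3 were nerve injury genes (Csrp3, Gal and Vip). Cluster 8 had 0 HC spots, 51 in TN1, 70 in TN3 and 324 in TN2. Cluster 2 had 668 HC spots, 149 in TN1, 93 in TN3 and 40 in TN2. The central neuron region is the brainstem tissue, marked by Gad1, Gad2, Slc32a1, Slc6a5 and Kcnc1, and had spots only in TN1 (427) and TN2 (130). Clusters 4 and 6 stayed unnamed because their leading lists tied, between sensory neuron and peripheral myelin in cluster 4 and between connective tissue and peripheral myelin in cluster 6. Cluster 4, with 366 HC spots, scored 1.27 on the sensory neuron list, above the 1.03 of cluster 8. When log-normalised counts were clustered, the cluster led by Csrp3 and Gal stayed unnamed too. Peripheral myelin spots numbered 409 in TN1 and 387 in TN3 but 11 in TN2 and 16 in HC, so this region could not be tested with these clusters.

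Over whole areas, Nefl, Nefm, Nefh and Prph were among the most abundant transcripts of the tissue. Nefl ranked 13th of all genes by UMIs in HC, with 239228 UMIs in 99.7% of spots and 40 UMIs in the median spot. In TN1, TN2 and TN3 its rank was 27, 53 and 39. Prph held rank 36 in HC, TN1 and TN2 and rank 74 in TN3. Ina was rare by comparison, with a UMI in 34.1% of HC spots, 15.8% of TN3 spots, 54% of TN1 spots and 60% of TN2 spots.

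By region, levels are given as CPM, the share of a gene in all UMIs of that region and area, scaled to a fixed total. Each captured transcript counts once whatever its length, so these are not corrected for capture efficiency, and differences between genes are best read as differences between regions in their ratio. Nefl, the core subunit, was at 7467 CPM in the ganglion region of HC, 5479 in TN1, 5711 in TN3 and 2577 in TN2. Nefm stood at 6519, 4895, 5039 and 2509 CPM in the same order of areas, and Nefh at 5600.3, 3573, 3311 and 2466 CPM. Prph was at 3696 CPM in HC, 4129 in TN1, 3169 in TN3 and 4202 in TN2. HC was thus the highest area for the 3 neurofilament chains and TN2 the lowest, while for Prph the HC value lay inside the TN range.

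**Figure D1:**
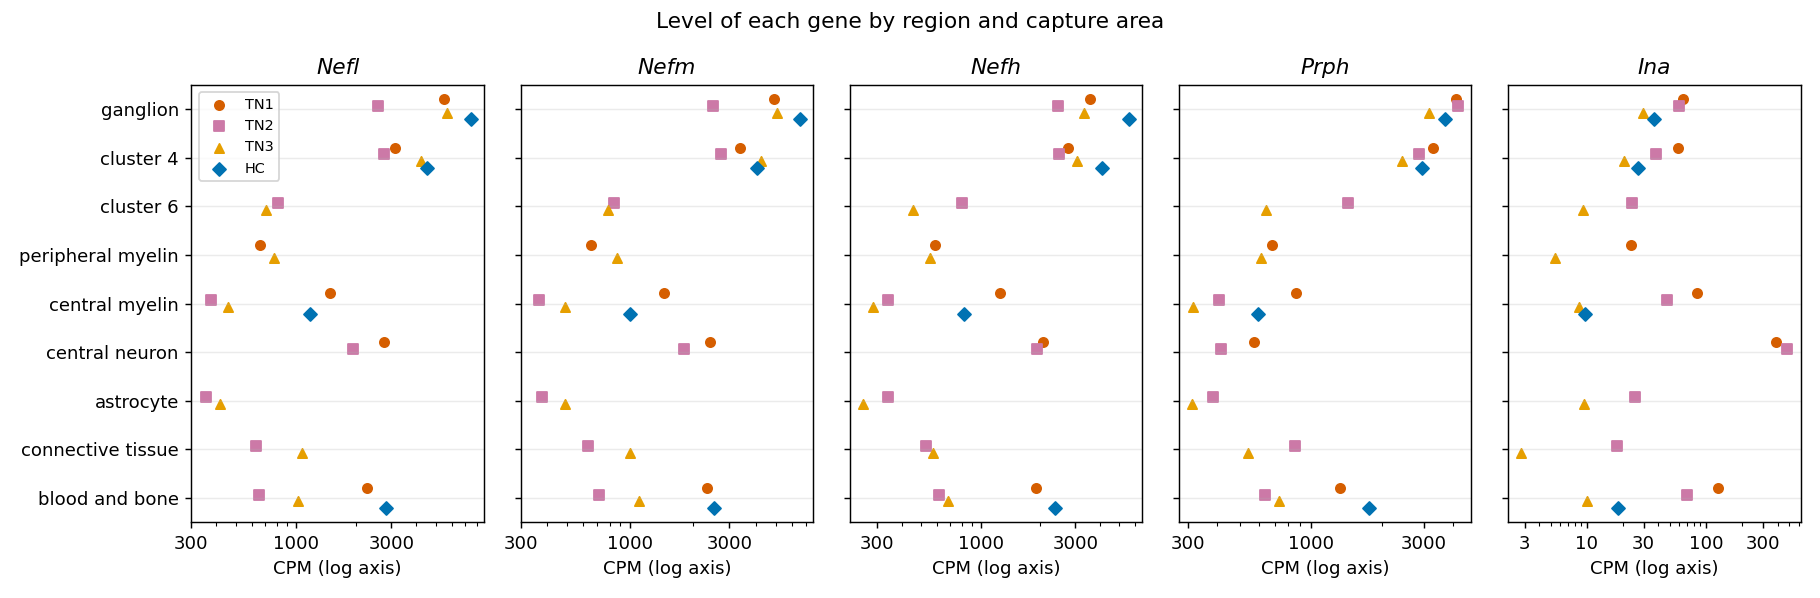
Level of each gene (CPM, log axis) in each region, with 1 point per capture area that had 20 or more spots of the region. Nefl, Nefm, Nefh and Prph were highest in the ganglion region and cluster 4, and Ina was highest in the central neuron region, at 389 CPM in TN1 and 482 CPM in TN2.

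The order of regions differed between members. Mean Nefl was 5308 ± 2026 CPM over the 4 areas for ganglion spots (SD), 3655 ± 842 in cluster 4 (n = 4), 2337 ± 587 in the central neuron region (n = 2) and 1696 ± 1026 in blood and bone (n = 4). Below these came central myelin at 869.6 ± 539 (n = 4), connective tissue at 855 ± 312 (n = 2), cluster 6 at 758 ± 74.8 (n = 2), peripheral myelin at 720.1 ± 85.3 (n = 2) and the astrocyte region at 386 ± 46.8 (n = 2). From blood and bone down to peripheral myelin, neighbours in this order differed by less than the larger of their SDs. TN2 was the only area with more Nefl in cluster 4 than in its ganglion region (107%). Nefm and Nefh followed the same order at the top. For Prph, the central neuron region stood second from the bottom, above the astrocyte region, at 494 ± 112 CPM (n = 2) against 3799 ± 476 in the ganglion region (n = 4).

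Brainstem and ganglion were therefore set apart by Prph and Ina, and less by the 3 neurofilament chains. The central neuron spots of TN1 and TN2 carried 50.2% and 74.6% of the Nefl level of the ganglion region of the same area, and 57.6% and 78.4% of its Nefh level. Their Prph level was 13.9% and 9.87% of that of the ganglion. The TN2 ganglion region holds 324 spots of cluster 8 and 40 of cluster 2. In TN2 cluster 2 alone Nefl was at 5465 and Nefh at 3897 CPM, against 1921 and 1934 in the central neuron spots. Ina ran the other way, at 600.4% and 818% of the ganglion level. In counts, 2206 Ina UMIs in TN1 and 1500 in TN2 came from these spots, so that Ina stood at 68 UMIs for every 100 of Prph there in TN1 (95% interval 64.4 to 71.8) and at 116 in TN2 (108 to 125), against 0.989 in the HC ganglion (0.927 to 1.05). These 95% intervals are exact binomial ones and reflect counting error alone.

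The ratio of Prph to Nefh, which sets the filament of small neurons against that of large ones, differed between groups of ganglion spots. In cluster 2 it was 0.660 in HC, 0.743 in TN3, 0.964 in TN1 and 1.08 in TN2. In cluster 8 it was 1.59 in TN3, 1.90 in TN2 and 1.93 in TN1, and in the central neuron spots 0.278 in TN1 and 0.214 in TN2. These summed ratios did not overlap between the 3 groups, whereas single spots did: Prph made up as much as 86.4% of the Prph and Nefh UMIs of a cluster 2 spot and as little as 32.7% in a cluster 8 spot. Cluster 8 lay above cluster 2 in each TN area, and the brainstem lay below both in TN1 and TN2. In HC the ratio hardly moved with region, at 0.660 in the ganglion, 0.715 in cluster 4, 0.720 in central myelin and 0.740 in blood and bone, whereas the Nefl level in those regions ranged from 15.7% to 60.6% of that in the ganglion. In TN2 and TN3, cluster 6 had ratios of 1.79 and 1.43, near those of cluster 8. These clusters were formed from the same spots, so the ratios are given as a description with no test.

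**Figure D2:**
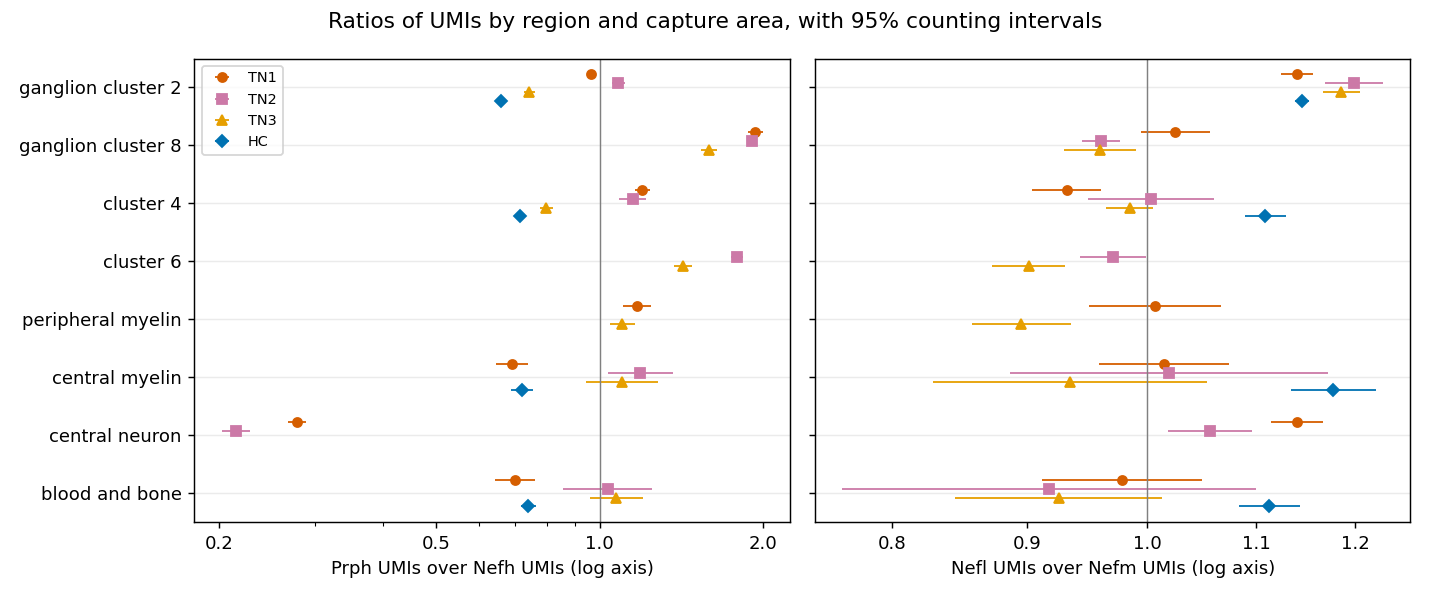
Ratios of summed UMIs by region and area (log axes), Prph over Nefh on the left and Nefl over Nefm on the right, with 95% exact binomial intervals for counting error. Prph over Nefh lay between 1.59 and 1.93 in ganglion cluster 8, between 0.660 and 1.08 in cluster 2 and at 0.278 and 0.214 in the central neuron spots.

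Nefl and Nefm, by contrast, stayed close to equal. Their ratio in cluster 2 was 1.15 in HC, 1.14 in TN1, 1.19 in TN3 and 1.199 in TN2. Cluster 8 gave 1.02 for TN1 and 0.960 for both TN2 and TN3, below cluster 2 in each of the 3 areas. The lowest value, 0.855, was that of the astrocyte region of TN3.

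For TN against HC the UMIs of each region were summed per area. The TN areas were compared with HC by edgeR's quasi-likelihood test with TMM normalization. TMM scales the library size of each area and does not make the mix of cells equal between areas. In the ganglion region the normalized level of Nefh was 5796 CPM in HC, 3557 in TN1, 3301 in TN3 and 2408 in TN2. All TN values lay below HC, by −0.91 on the log2 scale (SE 0.25, adjusted p = 0.546, edgeR). Nefl was at 5454, 2516, 5695 and 7728 CPM in TN1, TN2, TN3 and HC, a log2 difference of −0.76 (SE 0.44, adjusted p = 0.597, edgeR). Nefm was at 4873, 2449.7, 5024 and 6747 CPM, a difference of −0.71 (SE 0.40, adjusted p = 0.591, edgeR). Again every TN area lay below HC, and TN2 was the lowest. Without TN2 the differences were −0.46 for Nefl and −0.43 for Nefm, and in cluster 2 alone they were −0.29 for Nefl, −0.32 for Nefm and −0.57 for Nefh.

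Prph was at 4111, 4103, 3159 and 3826 CPM, with a log2 difference of −0.01 (SE 0.23, adjusted p = 0.988, edgeR), and its HC value fell between the TN areas. Ina was at 64.5, 57.6, 29.7 and 37.9 CPM, a difference of 0.42 (SE 0.42, adjusted p = 0.761, edgeR), again with HC inside the TN range. The summed level of the 5 central neuron markers in these ganglion spots was 10.8 CPM in HC, 8.65 in TN3, 12.7 in TN2 and 23.3 in TN1, highest in the 2 areas that also held brainstem spots and the most Ina. Its part in the Ina values was not tested.

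**Figure D3:**
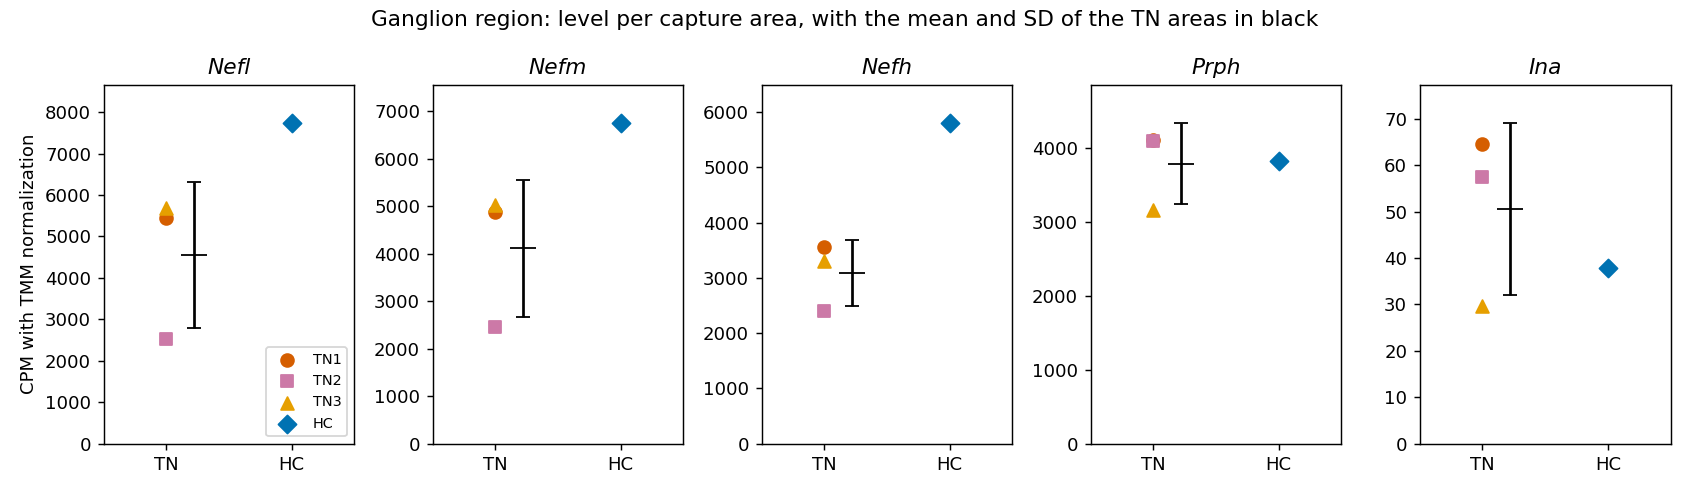
Normalized level (CPM with TMM) of each gene in the ganglion region, 1 point per capture area, with the mean and SD of the 3 TN areas in black. Nefl, Nefm and Nefh lay below HC in all 3 TN areas, while HC lay within the TN range for Prph and Ina.

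The edgeR test called 0 of the 5 members, against 0% of the 12828 genes tested (9.09% at an unadjusted p under 0.05, Nefh among them, and 0.92% by DESeq2, with no member among them). The 3 neurofilament chains lay below HC in every TN area, as did 29.4% of all genes, and no member lay above HC in every TN area, against 27.5% of genes. The median log2 difference was −0.71 over the members, −0.37 over 8 sensory neuron markers, −0.31 over 8 pan-neuronal genes and 0.03 over all genes tested. Markers of other cells differed as well, with no gene called: connective tissue genes had a median of 1.40 (5 of 6 above HC in every TN area), macrophage genes 1.22 (6 of 7 above) and blood and bone genes −1.25 (8 of 9 below). The macrophage markers summed to 146 CPM in HC and 243 to 582 in TN, the connective tissue markers to 1080.1 in HC and 1083 to 3340.1 in TN, and the blood and bone markers to 489.8 in HC and 125 to 412 in TN, with every marker of the 3 lists detected in each area. Their part in the members' differences was not tested. Fewer neurons per spot and less RNA per neuron cannot be told apart in these sums. The 12 nerve injury genes were all above HC in every TN area, with a median of 4.10, also without an adjusted p under 0.05 in edgeR. The gene lists were chosen with earlier results of these data known, so this count is a description.

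Set against neuronal transcripts rather than all RNA, Nefh and Prph parted. For every 1000 UMIs of 8 pan-neuronal genes (Snap25, Uchl1, Eno2, Stmn3, Syp, Rab3a, Syn1 and Sncb), the HC ganglion held 451 Nefh UMIs, against 342 in TN1, 347 in TN3 and 288 in TN2. Nefl stood at 602 in HC, 524 in TN1, 598 in TN3 and 301 in TN2, so TN3 lay close to HC and TN2 lowest. Nefm stood at 525 in HC, 469 in TN1, 528 in TN3 and 293 in TN2, so that TN3 lay above HC (p = 0.75, exact permutation test). Prph stood at 298 in HC and higher in each TN area, at 395 in TN1, 332 in TN3 and 491 in TN2. The pan-neuronal genes themselves summed to 12412 CPM in HC, 10449 in TN1, 9549 in TN3 and 8566 in TN2. A lower denominator thus enters each TN value. In TN3 the Prph level in CPM lay below that of HC (3169 against 3696). The Prph to Nefh ratio of the whole ganglion region was 0.660 in HC and above it in each TN area, at 1.16 in TN1, 0.957 in TN3 and 1.70 in TN2, a mean log2 difference of 0.90. Within cluster 2 alone this difference was 0.48. With 3 areas against 1, an exact two-sided permutation test cannot go below p = 0.25. This exact permutation test gave p = 0.5 for the ratio, p = 0.25 for Nefh and p = 0.5 for Prph per pan-neuronal UMI.

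In the central myelin region, named for its oligodendrocyte genes, no member was called either (0% of 9145 genes, 3.25% at an unadjusted p under 0.05, and 0.0437% by DESeq2). Nefl was at 1222 CPM in HC, 1446 in TN1, 467 in TN3 and 370.1 in TN2, so that TN1 lay above HC and TN2 and TN3 below. The log2 difference of −0.68 became −0.33 without TN2 and −0.43 without TN3. No member lay to one side of HC in every TN area, against 20.3% of genes higher and 21% lower. Without TN1, where HC is set against 2 areas alone, the log2 difference was −1.53 for Nefl and −1.44 for Nefh. That of Ina was positive whichever TN area was left out, at 1.46 to 2.68. Ina was at 82.4, 46.5, 8.82 and 10.1 CPM in TN1, TN2, TN3 and HC, a log2 difference of 2.21 (SE 0.93, adjusted p = 0.9996, edgeR). The 5 central neuron markers summed in the same spots to 0.971 CPM in HC, 2.58 in TN3, 50.7 in TN2 and 68 in TN1, with 2 of the 5 detected in HC and 3 in TN3, and their part in the Ina values was not tested.

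Over all spots, Nefl was at 3431, 1550.1, 2247 and 6039 CPM in TN1, TN2, TN3 and HC, a log2 difference of −1.33 (SE 0.47, adjusted p = 0.556, edgeR), and Nefh differed by −1.39, Nefm by −1.22 and Prph by −0.65. All 4 lay below HC in every TN area, as did 30.6% of all 14902 genes (28.7% lay above), and none was called (0% of genes, 8.53% at an unadjusted p under 0.05, 0.966% by DESeq2). The areas differ in tissue: the ganglion region took 668 of 2013 spots in HC and 200 of 1587, 364 of 1256 and 163 of 1917 in TN1, TN2 and TN3. Without TN1, where HC is set against 2 areas alone, the log2 differences over all spots were −1.67 for Nefl, −1.53 for Nefm and −1.68 for Nefh.

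Within the ganglia of the TN areas, spots with many and few injury transcripts could be compared side by side, area by area. The injury share of a spot is the UMIs of 12 nerve injury genes (among them Atf3, Sprr1a, Gal and Csrp3) as a share of those plus the 8 pan-neuronal genes. Ganglion spots were split at the median of this share within each area, and the sums were tested with the area as a block. All 5 members differed between high and low spots, and in opposite directions: Nefl, Nefm and Nefh fell, and Prph and Ina rose. Of 10546 genes, 15.8% were called in this comparison by edgeR, with 7.61% higher and 8.22% lower (28.7% at an unadjusted p under 0.05), and 6.79% by DESeq2, which also called all 5 members. The 3 chains were lower in the high spots of every area, as were 24.2% of genes, and Prph and Ina higher in every area, as were 26% of genes.

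The light chain moved most. In TN1, high spots had 4316 CPM of Nefl and low spots 6849. The pairs were 1623 and 3381 in TN2 and 3607 and 7455 in TN3. High spots thus held 63%, 48% and 48.4% of the Nefl level of low spots, a log2 difference of −0.91 (SE 0.08, adjusted p = 3.55e-06, edgeR). Nefm fell to 69.8%, 56.6% and 57.3% (log2 −0.70, SE 0.07, adjusted p = 1.48e-05, edgeR), and Nefh to 72.9%, 66.3% and 60.6% (log2 −0.57, SE 0.07, adjusted p = 4.82e-05, edgeR). In each of the 3 areas the fall was steepest for Nefl and least steep for Nefh.

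Prph was at 4842 CPM in high and 3288 in low spots of TN1, at 4298 and 4122 in TN2, and at 3506 and 2889 in TN3. It was higher in the high spots of each area, by 0.32 on the log2 scale (SE 0.08, adjusted p = 0.0160, edgeR), least in TN2, where high spots held 104% of the low level against 147% in TN1 and 121% in TN3. The call was lost without TN1 (log2 0.17, adjusted p = 0.139, edgeR) and without TN3 (0.32, adjusted p = 0.154), and held without TN2 (0.44, adjusted p = 0.000764). Ina, the rarest member, was at 71.4 against 57 CPM in TN1, 71.6 against 48.3 in TN2 and 36.2 against 24.4 in TN3, a log2 difference of 0.50 (SE 0.09, adjusted p = 0.00164, edgeR). The 5 central neuron markers together were at 21.2 CPM in high and 25.7 in low spots of TN1, 10.6 and 14.4 in TN2, and 6.15 and 10.7 in TN3. These levels are low: 4 of the 5 were detected in TN3, and 1 of the 5 passed the count filter. Their part in the Ina values was not tested.

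**Figure D4:**
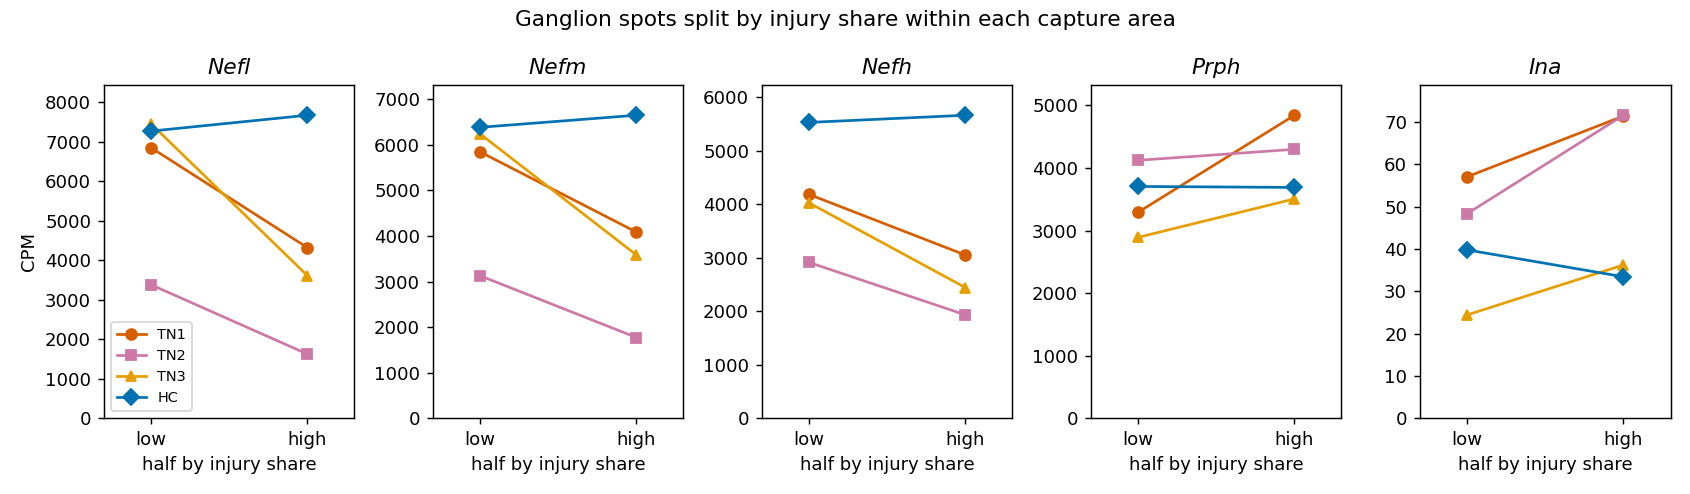
Level (CPM) of each gene in ganglion spots with a low and a high injury share, split at the median of each area, with 1 line per capture area. Nefl, Nefm and Nefh are lower and Prph and Ina higher in the high spots of all 3 TN areas, and the HC lines are nearly flat apart from Ina, which is lower in the high spots.

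Other transcripts moved with this split. The 8 pan-neuronal genes summed in high spots to 92.8%, 90.9% and 79.5% of the low level in TN1, TN2 and TN3. As a sum this was a smaller fall than that of any neurofilament chain in the same area, though these genes also enter the split rule. Gene by gene, 7 of them were tested and 7 were below 0, with a median log2 difference of −0.34. Of these, 3 were called lower, against 8.22% of all genes. The 8 sensory neuron markers fell too: 6 were called lower and all 8 were below 0, with a median log2 difference of −0.59, against −0.57 for Nefh. Their summed level was 3528 CPM in high and 4267 in low spots of TN1, 1922 and 4148 in TN2, and 3480.4 and 4109.6 in TN3. Per pan-neuronal UMI, Nefl in high spots stood at 67.9%, 52.8% and 60.8% of the low level in TN1, TN2 and TN3. In the same order Nefm stood at 75.3%, 62.2% and 72.1% and Nefh at 78.5%, 72.9% and 76.2%. Prph stood at 159%, 115% and 153% and Ina at 135%, 163% and 187%. Macrophage markers rose (5 of 6 tested called), with summed levels of 299, 717 and 472 CPM in high and 177, 469 and 330.2 in low spots of TN1, TN2 and TN3. Connective tissue (5 of 6) and peripheral myelin markers (5 of 6) also rose, and the summed peripheral myelin level was 12822 against 7904 CPM in TN1 and 14988 against 15058 in TN2. All 7 macrophage, 6 connective tissue and 6 peripheral myelin markers were detected in every sum. Their part in the members' differences was not tested.

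The same split of the HC ganglion gave almost no change apart from Ina. High spots held 106% of the Nefl, 104% of the Nefm, 102% of the Nefh, 99.6% of the Prph and 84% of the Ina level of low spots. Injury shares in HC were low, with a median of 0.606%, against 4.66% in TN1, 17.9% in TN2 and 5.76% in TN3, so the same rule separates much less there. In a fit of all 8 sums, the change in TN minus that in HC was −0.96 (SE 0.15, adjusted p = 0.00798, edgeR) for Nefl, −0.73 (adjusted p = 0.0201) for Nefm, −0.58 (adjusted p = 0.0444) for Nefh, 0.77 (adjusted p = 0.0331) for Ina and 0.35 (adjusted p = 0.395) for Prph. That fit called 1.07% of 11919 genes, and 4 of the 5 members.

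In HC the Prph to Nefh ratio was 0.651 in high and 0.670 in low spots. It was 1.59 and 0.785 in TN1, 2.22 and 1.41 in TN2, and 1.44 and 0.717 in TN3. The low spots of TN1 and TN3 had ratios above but near those of HC, and the low spots of TN2 did not. Of the TN2 low spots, 78% belonged to cluster 8, against 0% in TN1 and TN3. Within cluster 2 alone, the split gave smaller differences, −0.22 for Nefl (adjusted p = 0.6, edgeR) and 0.20 for Prph (adjusted p = 0.557), and 18 genes in all were called, with no member among them.

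The neurofilament proteins work within a larger cytoskeleton, and its genes divided over the same split. Of 12 microtubule genes tested, 5 rose and 4 fell, against 7.61% of all 10546 genes called higher and 8.22% lower. The risers were the tubulins Tubb2b (log2 0.86), Tubb3 (0.48), Tuba1a (0.44) and Tubb2a (0.36) and the tubulin-binding Stmn2 (0.47), and the fallers were the microtubule-associated proteins Map1b (−0.42), Mapt (−0.27), Map1a (−0.24) and Map2 (−0.24), all with an adjusted p under 0.05 in edgeR. Of 12 axonal transport motor genes, 4 fell (Dync1i1 at −0.55, Kif1b at −0.28, Klc2 at −0.23 and Kif5a at −0.20) and 0 rose. Of 8 spectrin, ankyrin and linker genes, Macf1 rose (0.22) and Sptbn4, the spectrin of the axon initial segment, fell (−0.31). Among 8 tested genes of neurofilament kinases, turnover and chaperones, the small heat-shock protein gene Hspb1 rose (0.95) and Trim2, a ubiquitin ligase known to act on Nefl, fell (−0.25). Of 6 other intermediate filament genes tested, 4 rose: Krt8 (0.63), Vim (0.51), Nes (0.37) and Lmna (0.37). Of 4 satellite glia genes tested, Sostdc1 (0.67) and Cdh19 (0.46) rose and Fabp7 fell (−0.32). Over the same split, the median log2 difference was −0.34 for pan-neuronal genes, 0.40 for connective tissue genes and 0.60 for macrophage genes. The part of such a difference in cell mix in the cytoskeletal genes was not tested.

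At the level of single ganglion spots, the balance between Prph and Nefh also differed between HC and the TN areas. Prph made up 41.6% of the Prph and Nefh UMIs of the median HC spot (lowest 14.3%, highest 70.3%), 55.5% in TN1, 65.4% in TN2 and 54% in TN3. Prph exceeded Nefh in 106 of 668 HC spots, or 15.9% (95% exact binomial interval 13.2% to 18.9%). The share was 91.2% (87.8% to 93.9%) for TN2, 58.9% (50.9% to 66.5%) for TN3 and 56.5% (49.3% to 63.5%) for TN1. The HC interval did not meet those of the TN areas, but spots of an area are not replicates. The median spot had 322 Prph and Nefh UMIs in HC and 346.5, 253 and 257 in TN1, TN2 and TN3. With each spot thinned to 50 such UMIs, leaving out 3 spots that had fewer, the shares were 21.3% in HC and 55%, 89.3% and 55.9% in TN1, TN2 and TN3.

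Across spots, the share of Prph was higher where the injury share was higher in TN but not in HC, with Spearman's rho of −0.01 over the 668 HC spots, 0.70 over 200 in TN1, 0.56 over 364 in TN2 and 0.54 over 163 in TN3. Within cluster 2 alone rho was 0.59 for TN1, −0.03 for TN2 and −0.02 for TN3. Within cluster 8 alone it was 0.39 for TN1, 0.50 for TN2 and 0.38 for TN3. Injury shares of HC spots were low, with a median of 0.606%, so their order holds little information and the HC rho says little. Spots of an area share a section and a library, so these are descriptions. Nefl, Nefm and Nefh rose and fell together from spot to spot, with rho between 0.88 and 0.96 for Nefl with Nefm and between 0.79 and 0.93 for Nefl with Nefh over the 4 areas. Nefl and Prph were opposed in HC (−0.51), TN1 (−0.68) and TN3 (−0.41) but not in TN2 (0.16).

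**Figure D5:**
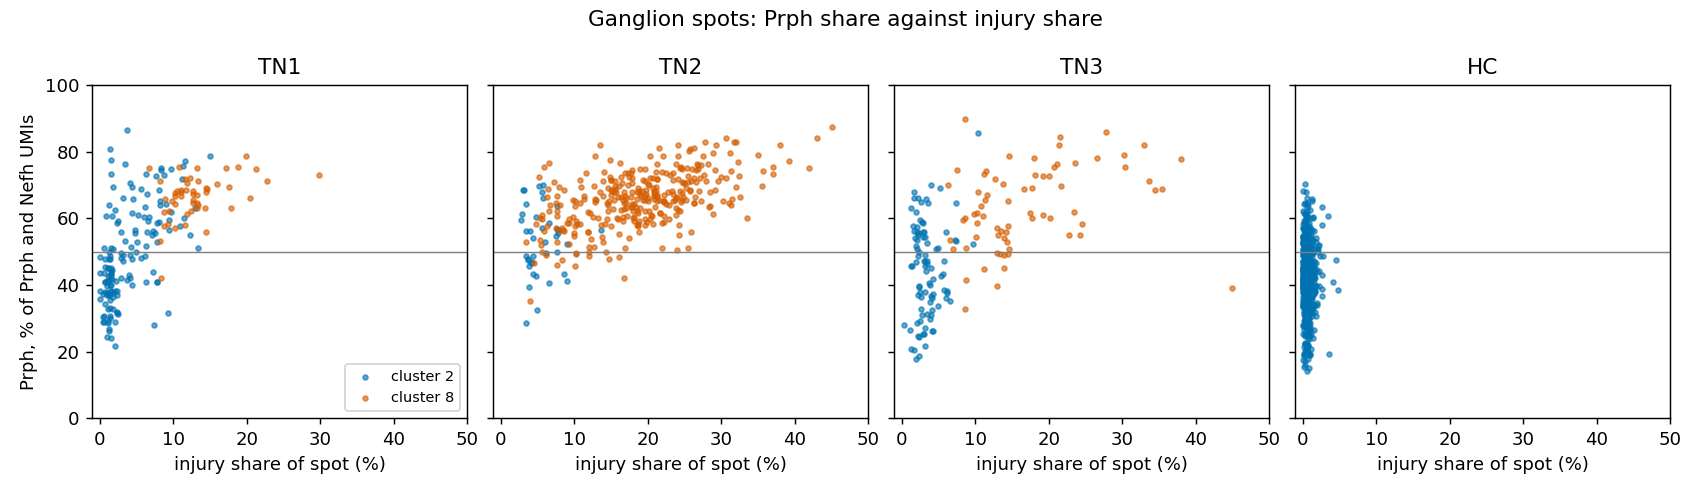
Prph as a percentage of Prph and Nefh UMIs in each ganglion spot against the injury share of the spot, by capture area, with spots of cluster 2 in blue and of cluster 8 in orange and a line at 50%. Most HC spots lie below the line at an injury share near 0, and most cluster 8 spots lie above it.

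The genes closest to each member over 26 sums of a region and an area (Pearson's r of log2 of CPM plus 1, among 7894 genes at a mean of 10 CPM or more) were named by rule. For Nefl they were Ywhag, which encodes a 14-3-3 protein (r = 0.98), Tmem179 (0.98) and Golga7b (0.97). For Nefm they were Hebp2 (0.98), Ywhag (0.98) and Tmem179 (0.97), and for Nefh Tlcd3b (0.99), Ache, the acetylcholinesterase gene (0.99), and Ywhag (0.99). Prph had a different set, Sncg, which encodes gamma-synuclein (0.99), Fkbp1b (0.98) and Susd2 (0.98). Ina was close to Lamp5 (0.98) and the potassium channel gene Kcnc1 (0.97), of which Kcnc1 was among the markers that named the central neuron region. Among the members, r was 0.997 for Nefl with Nefm and 0.98 for Nefl with Nefh, 0.84 for Nefl with Prph and 0.37 for Nefl with Ina. The sums share libraries and depth, so no p is given.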

How the data were processed

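The authors deposited UMI counts per gene and spot, without normalization, for spots under tissue. Per the file headers these came from Space Ranger 1.2.0, and the submitters' processing notes also name STAR with no version. Whether depth was made equal between areas, the genome build and the annotation are not stated in the labels, headers or methods. Members and gene lists were chosen with earlier results of these data known.

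Areas were assigned by barcode suffix. SCTransform (sctransform 0.4.2, Seurat 5.3.0) was run on 16088 genes with a UMI in 10 or more spots, the 5 members were removed from the 3000 most variable genes, and 30 principal components went into K-means with 50 starts and 10 clusters. Clusters were named by the mean centred log2 of CPM plus 5 over each marker list and left unnamed within a margin of 0.25 of the next list. No doublet caller was applied to spots.

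Counts were summed per region and area (20 spots or more in each) and edgeR 4.0.16 in R 4.3.3 was run (filterByExpr, TMM, glmQLFit and glmQLFTest), with Benjamini-Hochberg adjustment over all genes at 0.05. With 1 HC area and 2 residual degrees of freedom, HC is assumed to vary as the TN areas do. The study's methods name MAST over spots, which was not used because spots are not replicates. The injury split used spots with 10 or more injury and pan-neuronal UMIs, which left out 0 spots. Genes outside the members were named by rule: the 3 most similar to each (1 gene is not reported here), and from the lists those that passed. The test of the split between TN and HC, cluster 2 alone and cluster 4 added were chosen after seeing the data. Alternatives were DESeq2 1.42.0 and its size factors, no filter on low counts, 8 or 12 clusters, clustering of log-normalised counts or with the members kept, only spots of 500 genes and 1000 UMIs or more, and each TN area left out. The edgeR script was tested on simulated counts. Confidence intervals are at 95%. Those of UMI ratios cover counting error only, and those of shares of spots treat the spots of an area as independent.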

Additional observations from a re-analysis of the deposited data

Results flagged for a closer look

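In normalized CPM, the difference between ganglion spots with a high and a low injury share had one sign in all 3 TN areas. In HC it had the other sign for each of the 5 members. For Prph the sign in HC depended on the measure, with high spots at 99.6% of the low level in CPM and 100.3% per pan-neuronal UMI. The gap between TN and HC was tested in a fit chosen after seeing the data, as the log2 change in TN minus that in HC. It was −0.96 for Nefl, −0.73 for Nefm, −0.58 for Nefh and 0.77 for Ina, each with an adjusted p under 0.05 in edgeR, and 0.35 for Prph (adjusted p = 0.395, edgeR). The change in HC was small apart from Ina, and ran from −0.26 (Ina) to 0.06 (Nefl) on the log2 scale. HC is 1 area with a median injury share of 0.606%, so the split separates little there. The fit therefore mostly restates the change within TN, apart from Ina, where the HC change of −0.26 also enters. It is not separate support for the change within TN. No member was tested for a sample far from the others, because no group held 4 areas.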

How the results depend on the processing

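The direction of every member's difference in the injury split held under each alternative run, but no member passed within cluster 2 alone (18 genes called) or without the block for the capture area (0 called). DESeq2 called 716 genes in the split, and leaving out an area gave 569 (TN3) to 1491 (TN2), with 1004 without TN1. For TN against HC, DESeq2 called 118 genes in the ganglion region, 4 in central myelin and 144 over all spots. Without a filter on low counts 20 were called in the ganglion and 3 in central myelin. Clustering of log-normalised counts and cluster 2 alone each gave 5 in the ganglion. Leaving out a TN area gave 0 to 339 genes in the ganglion, 0 to 425 in central myelin and 0 to 2171 over all spots, each highest without TN1. Without TN2 the ganglion gave 12. The 13 ganglion alternatives, cluster 4 added among them, gave log2 differences of −0.93 to −0.29 for Nefl. They gave −0.86 to −0.32 for Nefm and −1.03 to −0.57 for Nefh. The Prph difference ranged from −0.079 to 0.13 in the ganglion and from −0.76 to 0.014 in central myelin, positive without TN3. The log2 TN against HC ratio of Nefh to Nefl ranged from −0.29 to 0.075, positive without TN3. That of Nefl to Nefm turned to 0.014 with log-normalised counts and 0.036 in cluster 2 alone, where Prph to Nefh was 0.48 and Nefh per pan-neuronal UMI −0.28. Nefl in central neuron over ganglion spots was −1.18 with log-normalised counts. The cause of these shifts was not tested. Peripheral myelin had enough spots in every area only with 8 or 12 clusters, where Nefl differed by −1.67 and −1.27 and 0 genes were called. No paired analysis was possible because HC is 1 area, so the groups share fewer than 2 replicate numbers.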
